A study of Drosophila melanogaster with 6 samples.

Results

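The RNAs described here are small nucleolar RNAs (snoRNAs), a small Cajal-body RNA, transcripts that host snoRNAs in their introns, and the RNA of RNase MRP. They are 9 named genes, and their probes were those whose identifier is the RefSeq accession, symbol or synonym of one of them. All 9 were found, on 10 probes with 1 spot per array each, and all 9 were among the 18780 features tested, of which 338 carry a gene symbol. The 5 small RNAs are a small part of the 269 genes that the RefSeq table types as snoRNA, and the 3 host transcripts are a part of the 7 genes it names Uhg with a number. The other snoRNA and Uhg genes were not identified on the array and are not analysed here.

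Irradiated larvae received 0.1 Gy of chronic gamma radiation at a rate of 16.7 mGy/h, starting when they were first-instar larvae. Control larvae received 0 Gy. Both groups were Oregon-R, a wild-type strain of the fruit fly Drosophila melanogaster, and RNA was taken from whole larvae whose age is labelled as 5 days, with 3 one-colour arrays per group. The labels do not tell whether each replicate was raised in a vial of its own. The p-values therefore speak of the spread among these arrays, which may be technical, and the number of arrays limits the precision.

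A snoRNA works inside a particle with proteins and pairs with another RNA to place a chemical mark on it. Box C/D snoRNAs guide 2′-O-methylation, box H/ACA snoRNAs guide the change of uridine to pseudouridine, and the RNAs of the Cajal body do the same work on spliceosomal RNAs. A few act in cleavage instead, above all U3, a box C/D RNA needed to release 18S ribosomal RNA from its precursor. RNase MRP is an RNA-protein enzyme that, in yeast, cuts the same precursor in the spacer that follows its 18S part, at a site used to form one end of the next ribosomal RNA. In flies many snoRNAs are cut from introns of host genes, and the Uhg genes are hosts whose spliced exons encode no known protein. All of these RNAs serve the making of ribosomes or of the spliceosome, and ribosomes are made in large amounts in growing larvae.

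The annotation places the 2 U3 genes outside any other gene, snoRNA:U3:9B on chromosome X and snoRNA:U3:54Aa on arm 2R. The 2 H/ACA genes lie inside protein-coding genes, snoRNA:Psi28S-291 inside RpL3 on arm 3R and snoRNA:Psi28S-2566 inside CG3902 on arm 3L. scaRNA:MeU5-C46, also called U85, lies inside CG1142, and RNaseMRP:RNA inside CG10365, both on arm 3R. Uhg2 and Uhg3 are on arm 2L and Uhg5 is on arm 2R. Their spans hold 4, 3 and 11 snoRNA genes in this order, 18 in all, none of which had a matched probe. Most carry names of 2′-O-methylation guides (2 in Uhg2, 3 in Uhg3 and 10 in Uhg5), and Uhg2 also holds both genes of U14, a C/D RNA that acts in 18S processing. The Uhg transcripts therefore have no values for their snoRNAs beside them. RpL3, CG3902 and CG1142 had no matched probe either. Whether the probes of the RNAs inside these genes also take up signal from unspliced host RNA was not tested.

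The 60 spots of these RNAs were all well above background, none was saturated, and none carried an outlier flag. The scanner software gives each spot an error of about 10% of its signal. Over the whole array, between 75.8% and 81.1% of gene spots were well above background. The upper quartile of the signal, to which each array was scaled, was 1451, 1527 and 1607 on irradiated arrays 1, 2 and 3, against 1441, 1288 and 1445 on control arrays 1, 2 and 3. It was higher on every irradiated array than on any control. Differences with no scaling between arrays are therefore also given below. Arrays irradiated 2 and irradiated 3 lay on another slide, read in another scan, than the controls and irradiated 1. Of 20 markers of larval tissue, 4 were identified by symbol, all secreted digestive enzymes, with group means between 2.33 and 7.55 as log2 signal over the upper quartile. For alphaTry and LysE all irradiated arrays lay above the controls, with log2 differences of 0.40 ± 0.11 and 0.42 ± 0.16 (SE, limma adjusted p = 0.384 and 0.492), and their part in the results below was not tested. For Jon65Aiii and epsilonTry the groups overlapped. Of 10 adult and gonad markers, 0 were identified by symbol. The RNAs made in males only, lncRNA:roX1 and lncRNA:roX2, varied between arrays within both groups.

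None of the 9 RNAs passed an adjusted p of 0.05 in limma, and neither did any other feature (0% of features called). The smallest adjusted p among the 9 was 0.381, for Uhg5. Of the 9, 7 were measured lower in irradiated larvae, where 50.5% of all features were measured lower. Their median log2 difference was -0.12, beside -0.0018 over all features. Not all of these directions held. scaRNA:MeU5-C46, snoRNA:Psi28S-291 and Uhg3 were at 0.13, 0.030 and 0.0024 with slide as a fixed block. With no scaling they were at 0.090, 0.016 and 0.064, where the median of all features was 0.13. The irradiated arrays all lay below every control array for Uhg2, Uhg5 and snoRNA:U3:9B, 3 of the 9, where 9.15% of all features were separated in that direction. The members were chosen with the differences of Uhg2 and Uhg5 known, so setting their counts beside the shares of all features is not a test. The same 3 RNAs had an unadjusted p under 0.05, as did 9.93% of all features, 4.88% lower and 5.04% higher. With slide as a fixed block none of them did, with limma p of 0.101 for Uhg5, 0.140 for Uhg2 and 0.308 for snoRNA:U3:9B. With no scaling none did either, with p of 0.092, 0.095 and 0.267 in the same order. For no member did the irradiated arrays all lie above the controls, where 8.23% of features did.

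Of the 9 RNAs, the host transcripts Uhg2 and Uhg5 had the largest log2 differences. On the scale used throughout, which is log2 signal minus the upper quartile of its array, Uhg5 stood at 0.93, 0.89 and 0.79 on irradiated arrays 1, 2 and 3, against 1.25, 1.25 and 1.04 on control arrays 1, 2 and 3. The groups did not overlap, and control 3 lay nearest to the irradiated arrays. The irradiated mean was 0.87 ± 0.074 and the control mean 1.18 ± 0.12 (SD, n = 3 each). The log2 difference was -0.31 ± 0.082 (SE), or 0.807 of the control level, with a 95% interval from -0.51 to -0.11 and a limma adjusted p of 0.381. Of all features, 3.54% had a difference at or below this one.

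Uhg2 stood at -1.11, -1.14 and -1.28 on irradiated arrays 1, 2 and 3, against -0.71, -0.77 and -1.02 on control arrays 1, 2 and 3. Again control 3 was the lowest control and no array of one group reached the other. The means were -1.18 ± 0.090 in irradiated larvae and -0.84 ± 0.17 in controls (SD, n = 3 each). The difference was -0.34 ± 0.10 (SE), or 0.791 of the control level, with a 95% interval from -0.59 to -0.086 and a limma adjusted p of 0.407.

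Uhg3, whose introns hold copies of 1 methylation guide for 28S ribosomal RNA, stood at 0.94, 0.92 and 0.74 on irradiated arrays 1, 2 and 3, against 0.96, 0.95 and 0.90 on control arrays 1, 2 and 3. Irradiated 1 and irradiated 2 lay within the range of the controls and irradiated 3 below it. The difference was -0.072 ± 0.071 (SE), with a 95% interval from -0.25 to 0.11 (limma adjusted p = 0.797). Uhg3 is the only member with 2 probes, and they differed from each other by between 0.25 and 0.31 log2 units on the 6 arrays, with an SD of 0.027. That spread between probes is smaller than the spread between arrays for any of the 9 RNAs, the smallest of which was an SD of 0.083, for Uhg3 itself. Each probe alone gave -0.072.

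**Figure D1:**
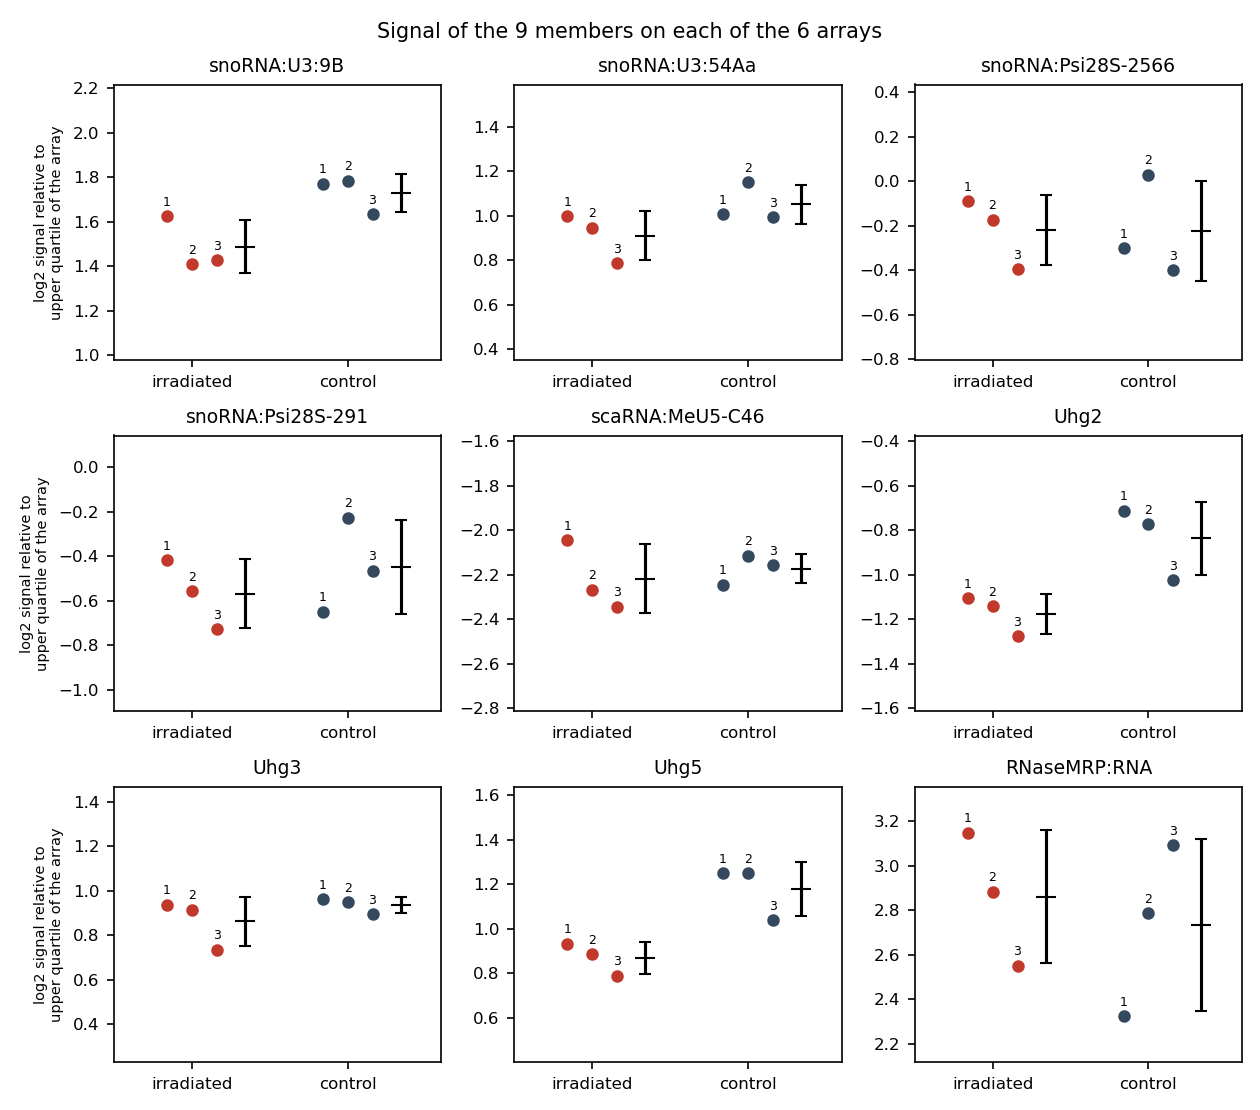
Log2 signal minus the upper quartile of its array (vertical axis, every panel spanning the same number of log2 units) for the 9 RNAs on each irradiated array (red) and control array (dark blue), with replicate numbers above the points and bars for the mean ± SD of 3 arrays. On this scale the 2 groups are apart for Uhg2, Uhg5 and snoRNA:U3:9B and overlap for the others, and RNaseMRP:RNA spreads most, from 2.32 to 3.15.

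Setting hosts against each other within an array removes the scaling between arrays. Uhg5 minus Uhg3 was -0.0038, -0.031 and 0.053 on irradiated arrays 1, 2 and 3, against 0.29, 0.30 and 0.14 on control arrays 1, 2 and 3. Uhg2 minus Uhg3 was -2.04, -2.06 and -2.01 on the irradiated arrays and -1.68, -1.72 and -1.92 on the controls, in the same order. The groups did not overlap in either, and the mean differences between them were -0.24 and -0.27. Uhg2 minus Uhg5 differed between the groups by only -0.028. In an exact permutation test, two-sided, both of the contrasts with Uhg3 gave p = 0.10, the smallest that 3 arrays against 3 can give, and Uhg2 against Uhg5 gave p = 0.40. These 3 contrasts were formed after the values had been seen, and no difference between the hosts was shown by this test, which could not go lower. The levels of different probes are not compared as amounts of RNA here, since probes bind with different strength.

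Of the U3 RNAs, snoRNA:U3:9B stood at 1.62, 1.41 and 1.43 on irradiated arrays 1, 2 and 3, against 1.77, 1.79 and 1.63 on control arrays 1, 2 and 3. The groups did not overlap on this scale, though irradiated 1 lay only just below control 3. The unscaled signals were 4474, 4058 and 4327 on irradiated arrays 1, 2 and 3, against 4920, 4441 and 4486 on control arrays 1, 2 and 3, and there irradiated 1 lay above control 2, so the groups overlapped. The difference was -0.24 ± 0.083 (SE), or 0.846 of the control level, with a 95% interval from -0.45 to -0.036 (limma adjusted p = 0.454). With no scaling it was -0.11. snoRNA:U3:54Aa stood at 1.00, 0.95 and 0.79 on irradiated arrays 1, 2 and 3, against 1.01, 1.15 and 1.00 on control arrays 1, 2 and 3. Irradiated 1 lay between the controls, and the difference was -0.14 ± 0.081 (SE), with a 95% interval from -0.34 to 0.061 (adjusted p = 0.634). The table names 3 U3 genes, which encode closely related RNAs. The probes for 2 of them may each bind the RNA of the others, and how far they do was not tested.

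The unscaled signal of snoRNA:U3:54Aa hardly moved. It was 2898, 2946 and 2775 on irradiated arrays 1, 2 and 3, against 2897, 2865 and 2882 on control arrays 1, 2 and 3, with means of 2873 ± 88.1 and 2881 ± 16.3 (SD, n = 3 each). With no scaling the difference was -0.0046, while the median of all features moved to 0.13. For Uhg5 and Uhg2 the unscaled signal was itself lower. Uhg5 gave 2772, 2822 and 2777 in irradiated larvae, against 3427, 3066 and 2969 in controls. Uhg2 gave 674, 692 and 663 in irradiated larvae, against 879, 753 and 711 in controls. For both hosts the irradiated signals lay close together and below all controls. With no scaling their log2 differences were -0.17 and -0.20, over 1.5 times smaller than the scaled ones.

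The H/ACA and Cajal-body RNAs lay nearer to 0 and their groups overlapped. snoRNA:Psi28S-291, named for the uridine of 28S ribosomal RNA that it guides, stood at -0.42, -0.56 and -0.73 on irradiated arrays 1, 2 and 3, against -0.65, -0.23 and -0.47 on control arrays 1, 2 and 3. Both groups spread widely, and the difference was -0.12 ± 0.14 (SE), with an interval from -0.46 to 0.22 (limma adjusted p = 0.829). snoRNA:Psi28S-2566, a guide for another uridine of 28S, stood at -0.090, -0.17 and -0.39 on the irradiated arrays and -0.30, 0.029 and -0.40 on the controls. Its difference was 0.0039 ± 0.14 (SE), with an interval from -0.35 to 0.35 (adjusted p = 0.998), and with no scaling it was 0.14. As folds of the control level, these intervals ran from 0.729 to 1.16 and from 0.787 to 1.28.

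scaRNA:MeU5-C46 carries both box types in 1 molecule and guides marks on the spliceosomal RNA U5. It stood at -2.04, -2.27 and -2.34 on irradiated arrays 1, 2 and 3, against -2.24, -2.11 and -2.16 on control arrays 1, 2 and 3. The irradiated arrays enclosed all 3 controls. The difference was -0.046 ± 0.093 (SE), with a 95% interval from -0.28 to 0.19 (adjusted p = 0.931). It was the dimmest probe of the 10, with signals between 298 and 352.

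RNaseMRP:RNA was the only member other than snoRNA:Psi28S-2566 that was measured higher, and it was the least steady. It stood at 3.15, 2.88 and 2.55 on irradiated arrays 1, 2 and 3, against 2.32, 2.79 and 3.09 on control arrays 1, 2 and 3. The unscaled signals were 12867, 11260 and 9415 in irradiated larvae, against 7214, 8896 and 12323 in controls. The groups overlapped almost wholly, and the highest array was 1.77-fold above the lowest. The difference was 0.13 ± 0.24 (SE), with an interval from -0.48 to 0.73 (limma adjusted p = 0.926). Its SD over the 6 arrays was 0.32, beside a median of 0.13 over all features, and 83.8% of features had a smaller one. Without control 1 the difference was -0.079, and without irradiated 1 it was -0.018. With no scaling between arrays the difference was 0.26.

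**Figure D2:**
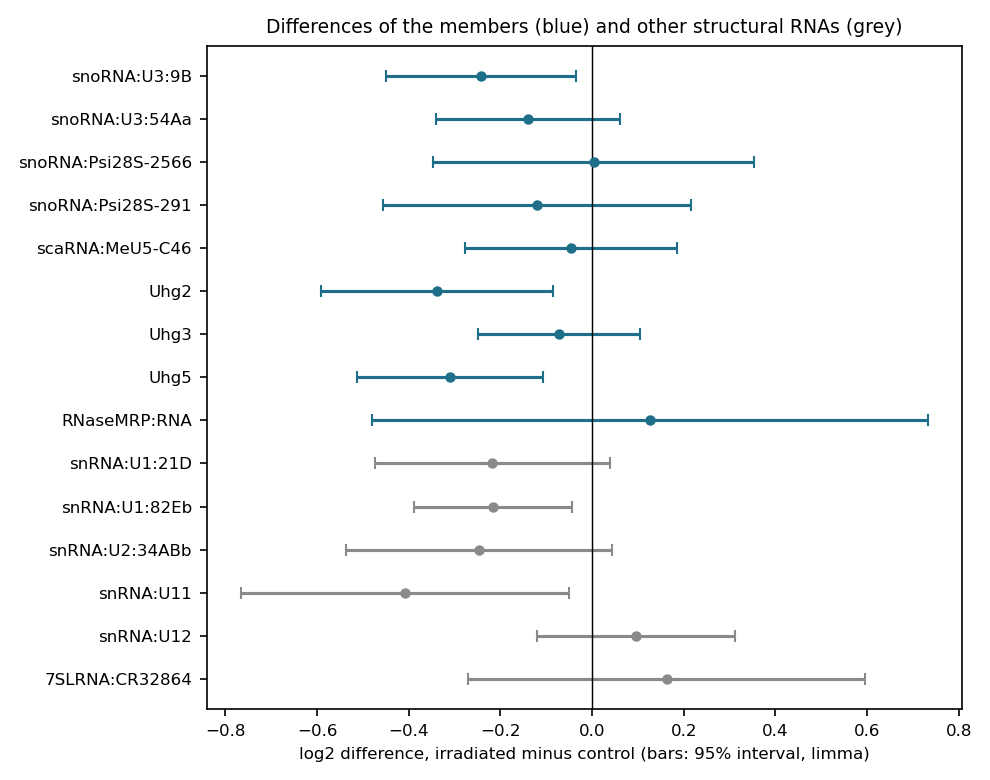
Log2 difference, irradiated minus control (horizontal axis), of the 9 RNAs (blue) and of 6 other structural RNAs (grey), with 95% intervals from limma on 3 arrays per group. The intervals of Uhg2, Uhg5 and snoRNA:U3:9B lie below 0, as do those of a U1 gene and of snRNA:U11, and no adjusted p is under 0.05.

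On the slide that holds both groups, irradiated 1 differed from the mean of the 3 controls by -0.25 for Uhg5 and -0.27 for Uhg2, close to the values over all arrays. For snoRNA:U3:9B it differed by -0.11, and for snoRNA:U3:54Aa by -0.054, both over 1.5 times smaller. For Uhg3 it differed by 0.0024, for snoRNA:Psi28S-291 by 0.030, for snoRNA:Psi28S-2566 by 0.13 and for scaRNA:MeU5-C46 by 0.13. For RNaseMRP:RNA it differed by 0.41, and these values rest on 1 irradiated array. With lncRNA:roX1 as a covariate, Uhg5 differed by -0.31, Uhg2 by -0.33, snoRNA:U3:9B by -0.25 and RNaseMRP:RNA by 0.031. In whole larvae, fewer cells of a type and less RNA per cell cannot be told apart.

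Other structural RNAs give the setting for these values. Of the 6 identified, 4 were measured lower and 2 higher, beside 50.5% of all features measured lower, with a median difference of -0.22, and none passed the adjusted threshold in limma. The 2 identified genes of U1, the RNA that recognises the start of introns, differed by -0.22 ± 0.069 and -0.22 ± 0.10 (SE). snRNA:U2:34ABb, a copy of the RNA that pairs with the branch point, differed by -0.25 ± 0.12 (SE). snRNA:U11 of the minor spliceosome differed by -0.41 ± 0.14 (SE), whereas its partner snRNA:U12 differed by 0.095 ± 0.087 (SE). snRNA:U11 was the dimmest of the 6, with group means of -5.37 in irradiated larvae and -4.96 in controls. Its spots were well above background on all arrays, but a difference at so low a level is less certain. 7SLRNA:CR32864, the RNA of the signal recognition particle, differed by 0.16 ± 0.17 (SE). The irradiated arrays all lay below the controls for both U1 copies and U11, 3 of 6, where 9.15% of all features did. This list too was drawn up with earlier results of these data known. Of 93 ribosomal protein genes listed, 5 were identified and tested. Of these 2 were measured higher and 3 lower, with a median of -0.060, 0 were separated and 0 had an adjusted p under 0.05 or an unadjusted p under 0.05 in limma. RpS29, RpS3A and RpS7 were dim, with group means between -4.63 and -3.72, whereas RpL18 stood at 6.75 and 6.73 in irradiated and control larvae. How well these probes report their messages was not tested. Of 47 listed genes for proteins of snoRNA particles, RNase MRP, U3 processing and ribosomal RNA synthesis, 0 were identified by symbol among the tested features, so the proteins that work with these RNAs were not assessed.

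**Figure D3:**
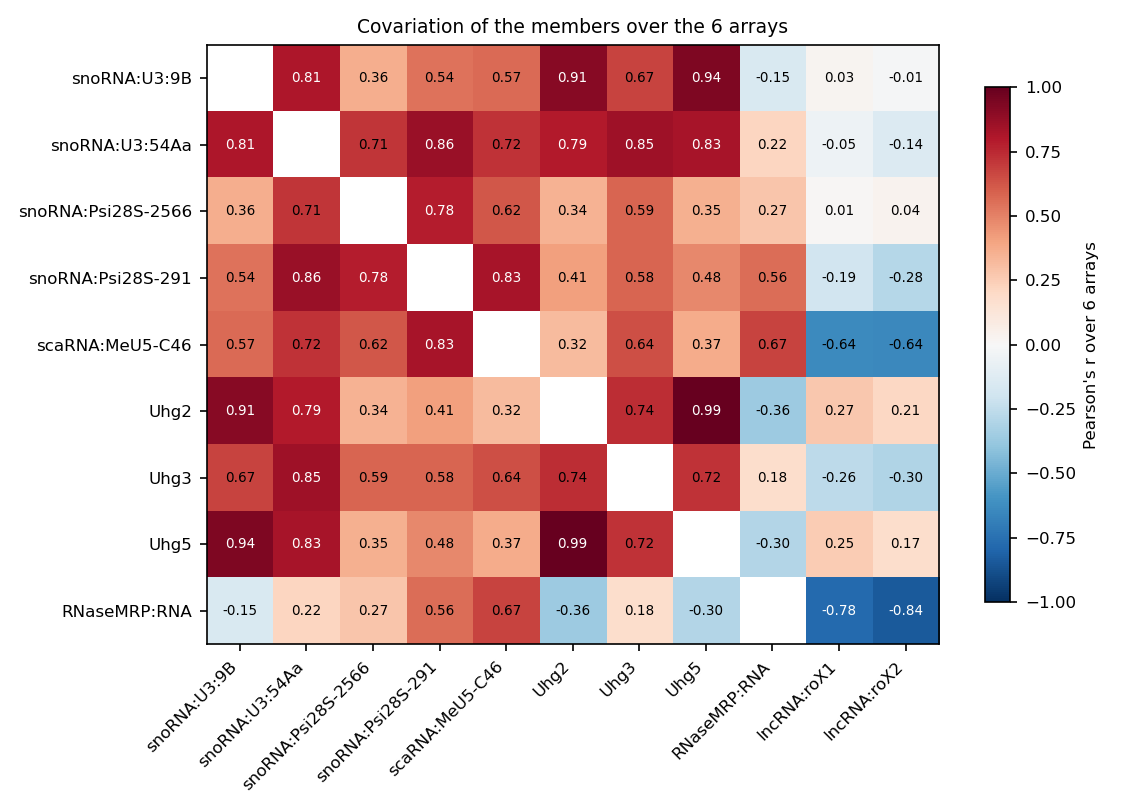
Pearson's r over the 6 arrays between the 9 RNAs (rows and columns) and with lncRNA:roX1 and lncRNA:roX2 (last columns), from blue at -1 to red at 1, on log2 signal relative to the upper quartile. Uhg2 and Uhg5 reach 0.99, most other pairs are positive, and RNaseMRP:RNA and scaRNA:MeU5-C46 are the most negative with both roX RNAs.

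Over the 6 arrays, 33 of the 36 pairs of members had a positive r, with a median of 0.60. The share of positive r among other pairs of features was not computed, so this count is not read as particular to the members. All values of an array share its scaling factor. Without scaling between arrays 20 of the 36 were positive and the median was 0.11, so most of the general agreement was not seen in unscaled signals. The pair of Uhg2 and Uhg5 was alike either way. Their r was 0.99 (exact permutation p = 0.0028, Spearman's rho 0.94 with p = 0.017), 0.98 without the 2 arrays farthest from the median of Uhg2, and 0.99 without scaling. Adjusted over the 54 relations computed, the p of this pair was 0.15. The groups are apart for both hosts, and groups of 3 are too few for an r of their own. On deviations from the group means r was 0.98. Its permutation p of 0.0056 came from exchanging all 6 arrays. Deviations sum to 0 within each group, so this p is not exact and may be too small.

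snoRNA:U3:9B followed Uhg5 with r = 0.94 (exact permutation p = 0.018, rho 0.94 with p = 0.017, adjusted p 0.24). The groups are apart for both RNAs, so this r includes the difference between the groups. Without irradiated 2 and irradiated 3, the arrays farthest from the median of snoRNA:U3:9B, r was 0.97, with irradiated 1 the only irradiated array left. On deviations from the group means r was 0.79 and without scaling 0.81. The r of Uhg3 with Uhg5 was lower, at 0.72 (exact permutation p = 0.054, rho 0.77 with p = 0.10, adjusted p 0.24). Without control 1 and irradiated 3, the arrays farthest from the median of Uhg3, r was 0.43, so this relation rests on those arrays. It was -0.079 without scaling.

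On scaled values RNaseMRP:RNA ran most strongly against the male-specific RNAs, and scaRNA:MeU5-C46 did so less strongly. lncRNA:roX1 stood at 0.48, 1.34 and 1.67 on irradiated arrays 1, 2 and 3, against 1.51, 1.73 and 0.83 on control arrays 1, 2 and 3. Irradiated 1 and control 3, where lncRNA:roX1 was lowest, had the highest RNaseMRP:RNA. The r was -0.78 with lncRNA:roX1 (exact permutation p = 0.071, rho -0.77 with p = 0.10) and -0.84 with lncRNA:roX2 (p = 0.050, rho -0.83 with p = 0.058), with adjusted p of 0.27 and 0.24. Without control 1 and irradiated 1 these were -0.87 and -0.93. Neither passes after adjustment, and the share of male larvae in each sample is not given in the labels. For Uhg5 r with lncRNA:roX1 was 0.25, and -0.75 without control 1 and control 2. For snoRNA:U3:9B it was 0.029, and 0.97 without irradiated 2 and irradiated 3, so with 6 arrays single arrays decide these values.

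**Figure D4:**
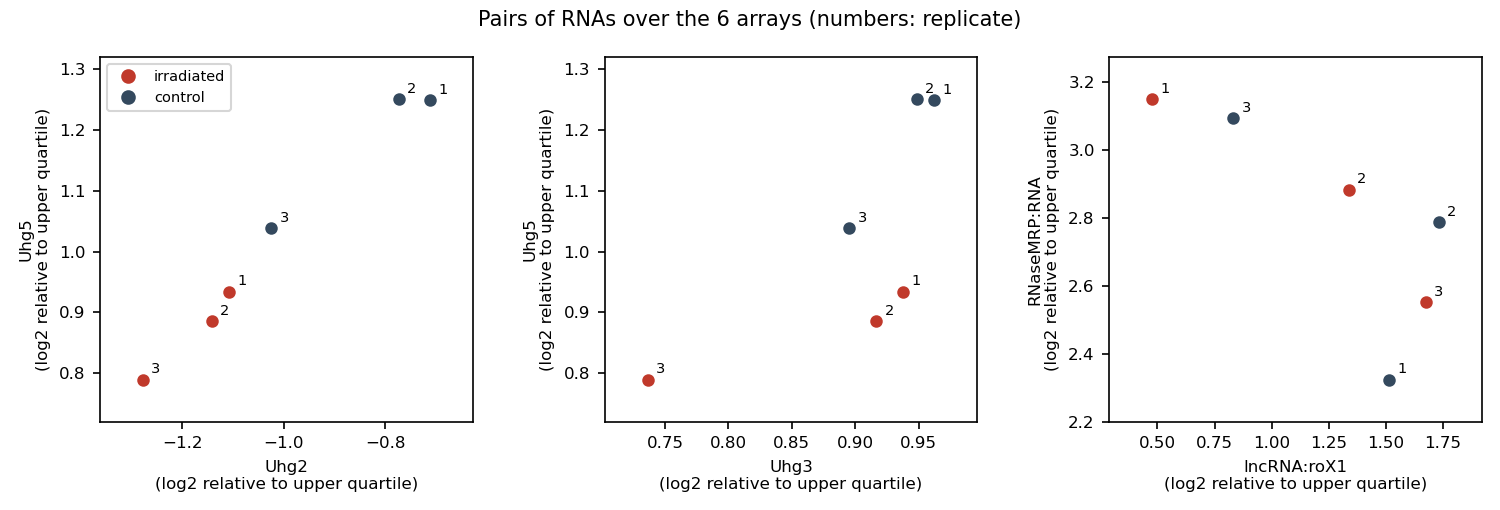
Log2 signal relative to the upper quartile for 3 pairs of RNAs on the 6 arrays, irradiated (red) and control (dark blue), with replicate numbers beside the points. Uhg5 follows Uhg2 along a line (r = 0.99), Uhg3 stays near 0.9 on 5 of 6 arrays while Uhg5 differs, and RNaseMRP:RNA is highest where lncRNA:roX1 is lowest.

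Among the 329 other features with a symbol, the one most like each member was taken by the highest Pearson r over the 6 arrays. For Uhg5 it was mRpL52, a mitochondrial ribosomal protein gene (r = 0.99), and for Uhg2 it was CG15021 (r = 0.996, followed by mRpS16 at 0.987). For snoRNA:U3:9B it was Dad, an inhibitor of BMP signalling (r = 0.98), and for snoRNA:U3:54Aa the kinase gene Dyrk3 (r = 0.97). For RNaseMRP:RNA it was vsg (r = 0.97), for scaRNA:MeU5-C46 CG5214 (r = 0.98), and for Uhg3 Adss, which acts in purine synthesis (r = 0.85). For the H/ACA RNAs it was CG10494 with snoRNA:Psi28S-2566 (r = 0.93) and lncRNA:CR32218 with snoRNA:Psi28S-291 (r = 0.94). For mRpL52, CG15021 and Dad the irradiated arrays also all lay below the controls, so their r includes the difference between the groups. Each r is the highest of 329 on scaled values, and shared regulation was not tested. The share of all features with an r over 0.9 ran from 0.447% for snoRNA:Psi28S-2566 to 2.30% for Uhg5.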

How the data were processed

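RNA of whole larvae was labelled with Cy3 and hybridised to Agilent Drosophila arrays, 1 sample per array. Per the file headers, spot intensities were quantified by the authors with Agilent Feature Extraction 11.5.1.1 (the submitters' processing notes name 9.1), background-corrected within each array and not scaled between arrays. The deposited value table holds a linear ratio per probe with a median of 1 over the arrays. Its higher values mean more signal, and its array factors are not given in the sources used here. For a comparison, scanner values were set against each probe's median, and 1 factor per array was fitted to these same data. The deposited ratios then matched within 0.05 log2 units for 75.1% of probes and for all 10 probes of the members. The column medians of the deposited table were 0.934, 1.171 and 0.993 for irradiated 1 to 3 and 0.892, 1.003 and 1.066 for controls 1 to 3. Labelling kits of the kind named in the labels start at poly(A) tails, which mature snoRNAs and RNase MRP RNA lack, and which forms of these RNAs gave the signal was not tested. The labels also name steps for blood, and whether they were applied is not known.

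After removal of control and flagged spots, each processed signal was put on a log2 scale from which the array's 75th percentile was subtracted. Probes were kept if at least 0.5 of their spots were well above background on all 3 arrays of a group (23818 probes), and probes of 1 gene were averaged (18780 features after leaving out 12 with a missing value). Identifiers were matched to the RefSeq table of the Release 6 assembly, used for names, chromosome arms and which genes lie inside others, since the array was annotated on an older build. Of 32162 probes, 549 matched 1 symbol, 3 several and 31610 none. Irradiated and control arrays were compared with limma 3.58.1 in R 4.3.3, two-sided, without a block, adjusted by Benjamini-Hochberg over all features. Same-numbered samples did not deviate together (correlations of -0.27, -0.20 and -0.60).

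The members and lists were chosen with earlier results of these data known, and the differences of Uhg2 and Uhg5 were among those results. Named are the 9 members, structural RNAs and listed genes with a symbol, the symbol most like each member, and the roX RNAs. No file used here holds probe or RNA sequences, so none is shown.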

Additional observations from a re-analysis of the deposited data

How the results depend on the processing

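Uhg2, Uhg5, snoRNA:U3:9B and snoRNA:U3:54Aa kept a negative difference under all 19 alternatives, at between -0.43 and -0.20, -0.38 and -0.17, -0.31 and -0.11, and -0.18 and -0.0046. Not all of the 19 could change it. For these members the other filters on dim probes, the brightest probe and the replicate block return the main estimate by construction. Slide as a fixed block and the fit within 1 slide return the same estimate as each other. None of the 171 values of the 9 members passed (lowest adjusted p 0.307 in limma). With the replicate block, which cannot move the estimate, Uhg5 was at -0.31 (limma adjusted p 0.609). With that block no feature was called, 1474 had an unadjusted limma p under 0.05, and no call of a member changed. The unadjusted p under 0.05 was lost under 4 of the 19 alternatives for Uhg5 (deposited table, slide as a fixed block, within 1 slide, no scaling) and under 7 for Uhg2, the same 4 and 3 that leave out an array (control 1, control 2 or irradiated 3). It was lost under 10 for snoRNA:U3:9B, these 7 and also the array median, normexp and without irradiated 2. The covariate lncRNA:roX1 and the absence of scaling were chosen after seeing the data. Normexp was run on the median signal, since the files hold no mean signal.

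Signs turned for members with small differences. When the slide entered as a fixed block, or when only the slide with both groups was used, scaRNA:MeU5-C46 was at 0.128, snoRNA:Psi28S-291 at 0.030 and Uhg3 at 0.0024. With the deposited value table, which moves the median of all features to 0.091, scaRNA:MeU5-C46 was at 0.047 and Uhg3 at 0.021. With no scaling, which moves it to 0.134, scaRNA:MeU5-C46 was at 0.090, snoRNA:Psi28S-291 at 0.016 and Uhg3 at 0.064. snoRNA:Psi28S-2566 was at -0.0034 with the array median, -0.016 with normexp and -0.0016 with slide as a random block. Leaving out each array gave ranges across 0 for scaRNA:MeU5-C46 (-0.133 to 0.016), snoRNA:Psi28S-2566 (-0.084 to 0.130) and RNaseMRP:RNA (-0.079 to 0.305). The cause was not tested, except that scaling factors enter these values by construction.

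The deposited value table called 7 features, none of them a member, and all other alternatives, each array left out included (0 to 0), called 0. Features at an unadjusted p under 0.05 numbered 1864, but 1088 with the array median, 763 with the deposited table, 1210 with slide as a fixed block and 1046 within 1 slide, and between 1317 and 1827 when each array was left out. Fits on 1 slide or with a block have fewer degrees of freedom, and the cause was otherwise not tested. The median r over the 36 pairs of members was 0.605 and fell to 0.110 with no scaling between arrays. For snoRNA:U3:9B and Uhg5, r was 0.787 on deviations from the group means (permutation p = 0.061, not exact for deviations). With no scaling it was 0.805 (exact permutation p = 0.076). Neither p was under 0.05. For Uhg3 and Uhg5, r was -0.079 with no scaling.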
